A study of Mus musculus with 20 samples.

Results

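The nuclear genes of oxidative phosphorylation were followed in mouse testis, on polysomes of Leydig cells and in total testis RNA. Members were the genes whose single annotated symbol begins with Ndufa, Ndufb, Ndufc, Ndufs or Ndufv (complex I), Sdha to Sdhd (complex II), Uqcr (complex III), Atp5 (complex V), or is Cox4 to Cox8 followed by a letter or i (complex IV). The assembly factors named Ndufaf were left out. The rule found 86 of 19938 annotated genes, of which 36 belonged to complex I, 8 to complex II, 8 to complex III, 17 to complex IV and 17 to complex V. It took in 4 genes that encode no subunit, the complex II assembly factors Sdhaf1 to Sdhaf4. All 86 had probe sets listed on every array and passed the filter on low values. Ndufb4 and Cox7c had only probe sets shared with a second symbol and were not used.

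The mice were RiboTag-positive/Cyp17icre-positive males of strain 129/C57BL6. RiboTag is a ribosomal protein allele that gains an HA tag where Cre recombinase acts, here under Cyp17icre, so that tagged polysomes can be pulled from a homogenate with an anti-HA antibody (IP). All animals, those of every group, had been given WIN 18,446, an inhibitor of retinoic acid synthesis, at 100 µg/g daily for 7 days from 2 days after birth and then 200 µg of all-trans retinoic acid at day 9, which sets the tubules to one phase of the seminiferous cycle. Testes were taken 42 to 50 days later and stood in one of 5 windows of the cycle, named by stage: XII-II/III and then II/III-VI, followed by VI-VIII, next VIII-X and last X-XII. Each time point used 1 testis. After homogenization 50 µl of it served for total RNA and what remained for the IP, and 100 ng of RNA from either was amplified for a GeneChip ST 1.0 array. That made 10 groups of 2 arrays, 20 in all. Tagging depends on the cells in which Cyp17icre is active, and an IP from animals without the tag was not analysed here.

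Oxidative phosphorylation makes ATP in the inner mitochondrial membrane. Complex I takes electrons from NADH and complex II from succinate, complex III passes them through cytochrome c to complex IV, which reduces oxygen, and complex V uses the proton gradient so built to make ATP. Most subunits are encoded in the nucleus and some in mitochondrial DNA. Complex IV has subunits with alternative forms for particular tissues, among them testis forms made in germ cells (Cox6b2, Cox7b2, Cox8c) and forms typical of heart and skeletal muscle (Cox6a2, Cox7a1, Cox8b). Leydig cells, the steroid-producing cells between the tubules, start steroid synthesis inside mitochondria, where cholesterol is cleaved. Only nuclear genes were examined, since the annotation held no symbol of a mitochondrially encoded gene.

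The sequences before the transcription start were examined for motifs of factors known to act on respiratory genes. RefSeq promoters (build GRCm38.p6, 300 bases, 250 before to 50 after the start) matched 71 of the 86 members by gene identifier. On either strand, the NRF1 motif GCGCATGCG was found in 8 members (11.3%, against 3.54% of the 12409 tested genes with a promoter and 1.75% of all 32851 promoters). The ETS motif CCGGAAG, read by factors such as GABPA, was found in 20 members (28.2%, against 16.5% and 8.86%). The YY1 motif AAGATGGCG was found in 7 members (9.86%, against 2.83% and 1.40%), and the estrogen-related receptor motif TCAAGGTCA in 2, Sdhd and Atp5g3 (2.82%, against 0.371% and 0.423%). These shares are descriptions of letters in a window and were not tested. The median GC content of the members' promoters was 57.7%, against 59.7% for the tested genes.

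The 250 bases before the start follow for 2 pairs of complex IV forms that behaved in opposite ways and for 2 members with both an NRF1 and an ETS match, with motif matches in capitals. In the promoter of Cox6a1 the NRF1 motif was read on both strands at one place, as 10 bases in capitals, and the reverse complement of the ETS motif lay near the start. In Uqcr11 the NRF1 match lay at least partly in the 50 bases after the start, which are not shown. Cox6b1 held the reverse complement of the ETS motif, and Cox6b2, Cox7b and Cox7b2 held none of the 4 motifs.
Cox6a1, chr5:115348959-115349208, minus strand: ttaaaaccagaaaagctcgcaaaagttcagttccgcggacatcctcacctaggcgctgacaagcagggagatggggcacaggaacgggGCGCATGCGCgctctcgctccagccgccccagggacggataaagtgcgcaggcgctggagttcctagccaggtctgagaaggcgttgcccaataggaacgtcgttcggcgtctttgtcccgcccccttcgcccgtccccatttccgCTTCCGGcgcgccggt
Uqcr11, chr10:80406822-80407071, minus strand: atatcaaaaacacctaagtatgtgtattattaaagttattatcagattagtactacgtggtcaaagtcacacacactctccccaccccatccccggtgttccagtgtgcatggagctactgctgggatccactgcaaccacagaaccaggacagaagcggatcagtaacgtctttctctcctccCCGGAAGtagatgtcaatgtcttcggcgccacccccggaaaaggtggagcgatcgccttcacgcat
Cox6b1, chr7:30626115-30626364, minus strand: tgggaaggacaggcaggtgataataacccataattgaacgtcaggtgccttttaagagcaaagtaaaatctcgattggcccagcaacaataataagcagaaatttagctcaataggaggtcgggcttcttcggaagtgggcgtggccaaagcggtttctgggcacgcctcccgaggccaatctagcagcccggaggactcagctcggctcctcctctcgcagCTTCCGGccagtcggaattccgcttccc
Cox6b2, chr7:4753095-4753344, minus strand: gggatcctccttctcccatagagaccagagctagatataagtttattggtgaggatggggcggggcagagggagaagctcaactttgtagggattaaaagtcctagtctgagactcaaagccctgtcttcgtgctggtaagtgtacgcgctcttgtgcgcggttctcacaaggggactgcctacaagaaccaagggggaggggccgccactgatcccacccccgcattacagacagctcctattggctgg
Cox7b, chrX:106015450-106015699, plus strand: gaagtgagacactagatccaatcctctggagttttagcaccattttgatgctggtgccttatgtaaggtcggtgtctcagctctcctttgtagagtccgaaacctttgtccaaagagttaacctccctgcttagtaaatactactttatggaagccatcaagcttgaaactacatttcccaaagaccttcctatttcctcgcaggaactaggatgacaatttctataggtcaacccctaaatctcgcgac
Cox7b2, chr5:71548206-71548455, minus strand: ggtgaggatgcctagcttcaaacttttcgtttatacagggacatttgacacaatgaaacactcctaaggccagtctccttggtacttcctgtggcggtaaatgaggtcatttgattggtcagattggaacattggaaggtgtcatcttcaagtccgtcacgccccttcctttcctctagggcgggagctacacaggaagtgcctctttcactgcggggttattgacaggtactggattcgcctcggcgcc

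The IP was checked against markers of the cells a testis holds. All 6 tested Leydig cell markers were higher in IP, and their summed intensity was 76649 to 93766 on the IP arrays against 15232 to 21689 on the total arrays. Spermatid and spermatocyte transcripts were lower but not absent. The 10 spermatid markers summed to 47696 to 81836 in IP against 92332 to 107500 in total testis (0 higher, 8 lower), and the 10 spermatocyte markers to 16487 to 30519 against 31857 to 37135 (0 higher, 10 lower). Of the other marker lists, Sertoli cells (5 of 7 higher, 0 lower) and endothelial cells (2 of 4 higher, 0 lower) had more markers higher in IP, peritubular myoid cells (1 of 5 higher, 4 lower) and macrophages (1 of 7 higher, 6 lower) more lower, and spermatogonia as many of each (2 of 6 higher, 2 lower). The summed intensity of the spermatogonial markers was higher in IP, at 10109 to 15645 against 3690 to 5316 in total testis. Kit (3.21) and Zbtb16 (1.83) were the 2 called higher, Sohlh2 (-1.33) and Gfra1 (-0.55) the 2 lower. The Sertoli cell markers summed to 18494 to 29300 in IP against 13304 to 14660. After median centring the Sertoli cell markers were at 3 higher and 0 lower (median -0.04), the endothelial markers at 1 and 3 (median -0.37) and the spermatogonial markers at 2 and 4. The deposited values lay in 4 sets of 5 arrays, 1 per fraction and replicate number, that appeared to have been normalized separately. In such bulk RNA, fewer cells of a type and less RNA per cell cannot be told apart.

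The first comparison set Leydig polysome RNA against total testis RNA. Most respiratory genes were higher in IP. Of 86 members, 71 were called higher, 7 lower and 8 in neither direction. Over all 15651 genes tested, 50.1% were called higher and 26.6% lower. The median difference of the members was 0.62 on the log2 scale, against 0.20 over all genes, and 68 of the 86 lay above the median of all genes. In 56 members all 10 IP arrays lay above all 10 total arrays, which held for 32.8% of genes, and in 7 they all lay below, which held for 10.1%. The members' median log2 intensity lay between 11.99 and 12.39 over the IP arrays and between 11.41 and 11.54 over the total arrays, with no overlap. This separation was not particular to the members. The median of all genes tested lay between 10.06 and 10.42 over the IP arrays and between 9.69 and 9.75 over the total arrays. The calls are those of limma with Benjamini-Hochberg adjustment over all genes (threshold 0.05). The number called higher depended on the scaling between the fractions: it was 49 higher and 24 lower after centring each array on its median, where the median of all genes was -0.24 and 30.7% of genes were called higher and 57.4% lower. After quantile normalization it was 66 and 12, with a median of all genes of -0.07 and 37.6% and 45.9% of genes called. Relative to the median of all genes the members' median stood 0.42 higher as deposited and 0.52 higher after quantile normalization. Centring moves every gene's difference by the same amount and leaves the 0.42 unchanged by construction. Fractions and normalization sets cannot be told apart, so the standard errors (SE) are likely too small. With the set as a random block (correlation 0.636) 62 members were higher and 6 lower, against 40.3% and 18.8% of all genes.

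**Figure D1:**
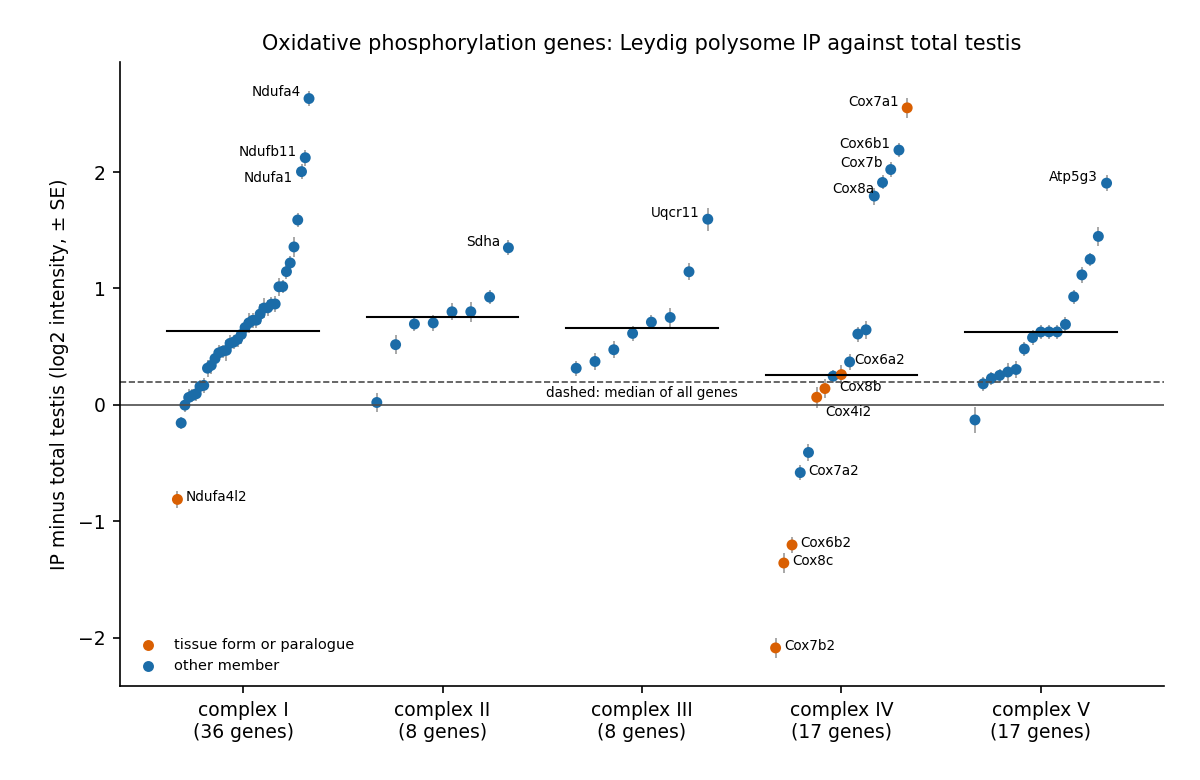
IP minus total testis in log2 intensity for each of the 86 members (points, with SE), sorted within their complex, with the median of the complex as a bar and the median of all genes as a dashed line. The medians of complexes I, II, III and V lie between 0.63 and 0.75 and that of complex IV at 0.26, where the testis forms Cox7b2, Cox8c and Cox6b2 lie lowest.

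In complex I, which oxidizes NADH, 30 of 36 members were higher and 2 lower, and the median was 0.63. After median centring 21 were higher and 9 lower, where 30.7% of all genes were higher and 57.4% lower. Ndufa4 differed most of all members. It was described as a complex I protein and is now regarded as a subunit of complex IV. Its log2 intensity was 10.86 to 11.36 on the IP arrays (median 11.17) and 8.39 to 8.73 on the total arrays (median 8.50). The lowest IP array lay far above the highest total array, and the difference was 2.63 ± 0.067 (SE, 10 arrays per fraction, limma adjusted p = 2.33e-15). Ndufb11 and Ndufa1, small accessory subunits of the membrane arm, followed at 2.12 ± 0.067 and 2.00 ± 0.064. Ndufb11 lay between 12.59 and 13.03 in IP and between 10.51 and 10.84 in total testis, and Ndufa1 between 10.11 and 10.71 against 8.03 to 8.66. The flavoprotein subunit Ndufv3 was higher by 1.59 ± 0.063.

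Among the core subunits of the electron path in complex I, Ndufs8, an iron-sulfur subunit, was higher by 1.01 ± 0.080, Ndufs1, the largest iron-sulfur subunit, by 0.83 ± 0.071, and Ndufv1, which binds NADH and flavin, by 0.53 ± 0.068. Ndufv2, the partner of Ndufv1, was not called, at 0.08 ± 0.058 (limma adjusted p = 0.214), and its arrays overlapped, at 13.06 to 13.25 in IP and 13.01 to 13.17 in total testis. Ndufs4, an accessory subunit needed for a stable complex, was at 0.00 ± 0.062 (limma adjusted p = 0.970). Ndufa7 (0.06 ± 0.069) and Ndufc1 (0.09 ± 0.058) were not called either. Ndufab1, which is also the mitochondrial acyl carrier protein, was higher by 0.78 ± 0.084. The lowest member of the complex was Ndufa4l2, a paralogue of Ndufa4 known to be induced by hypoxia. It lay between 8.78 and 9.22 in IP and between 9.59 and 9.99 in total testis, a difference of -0.81 ± 0.072 (limma adjusted p = 1.96e-08). Ndufb5, the other member called lower, differed by -0.16 ± 0.052 (limma adjusted p = 0.0127), a call lost with the random set block (limma adjusted p = 0.121).

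Complex II, which also belongs to the tricarboxylic acid cycle, had 7 of 8 members higher and 0 lower, at a median of 0.75. All 4 catalytic and anchor subunits were among the 7. Median centring left 6 members of the complex higher and 1 lower. Sdha, the flavoprotein that oxidizes succinate, lay between 12.92 and 13.28 in IP (median 13.20) and between 11.65 and 11.95 in total testis (median 11.80). The ranges did not overlap, and the difference was 1.35 ± 0.063 (limma adjusted p = 3.95e-12). The iron-sulfur subunit Sdhb was higher by 0.93 ± 0.059, and the membrane anchors Sdhc and Sdhd by 0.80 ± 0.087 and 0.70 ± 0.069. Of the assembly factors, Sdhaf1, Sdhaf2 and Sdhaf3 were higher, and Sdhaf4 was not called (0.02 ± 0.081). The second probe set of Sdhaf4 gave -0.49.

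In complex III all 8 members were higher, with a median of 0.66. Uqcr11, a small subunit, led with 1.60 ± 0.099 (limma adjusted p = 1.59e-10), from 10.22 to 10.95 in total testis to 11.96 to 12.45 in IP. The Rieske iron-sulfur protein Uqcrfs1 was higher by 0.75 ± 0.080. The core proteins Uqcrc2 and Uqcrc1 were higher by 0.47 ± 0.073 and 0.31 ± 0.063, the latter being the smallest difference of the complex. With the random set block Uqcrc1 was not called (limma adjusted p = 0.0689). After median centring 5 of the 8 were called higher and 0 lower, and Uqcrc1 and Uqcrq turned to -0.12 and -0.066, neither called.

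In complex V, the ATP synthase, 16 of 17 members were higher and 0 lower, and the median stood at 0.63. These counts depended on the scaling, with 10 higher and 5 lower after median centring. The 3 genes for the same c subunit of the membrane ring differed in size. Atp5g3 was higher by 1.90 ± 0.069 (limma adjusted p = 1.58e-13), with 13.35 to 13.80 in IP and 11.51 to 11.85 in total testis. Atp5g2 was higher by 1.25 ± 0.054 and Atp5g1 by 0.48 ± 0.063, and in each of the 3 genes the IP arrays all lay above the total arrays. The catalytic subunits of the head were unequal as well: Atp5a1 was higher by 1.12 ± 0.067 and Atp5b by 0.30 ± 0.071. Atp5b turned to -0.13 after median centring, while Atp5a1 stayed higher at 0.68. Atp5e, the epsilon subunit, was the lowest of the complex and was not called (-0.13 ± 0.11, limma adjusted p = 0.283).

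Complex IV, cytochrome c oxidase, was divided. Of its 17 members 10 were higher and 5 lower, and the median was 0.26. This balance depended on the scaling, with 7 higher and 9 lower (median -0.18) after median centring and 8 and 7 (median 0.03) after quantile normalization. The list holds 7 forms known from particular tissues or from low oxygen, namely Cox4i2, Cox6a2, Cox6b2, Cox7a1, Cox7b2, Cox8b and Cox8c. The other 10 members had a median of 0.63, with 8 higher and 2 lower. Together with Ndufa4l2, the alternative forms had a median of -0.37, with 2 higher and 4 lower of 8, and the remaining 78 members a median of 0.64, with 69 higher and 3 lower. After median centring the alternative forms had 1 higher and 7 lower and the remaining members 48 higher and 17 lower. This division into forms used knowledge of the genes and was made with results of these data in view.

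Among the widely expressed forms of the complex IV subunits, 4 had large differences and 2 were lower in IP. Cox6b1, which faces the intermembrane space, lay between 12.96 and 13.21 in IP (median 13.10) and between 10.72 and 11.04 in total testis (median 10.92), a difference of 2.19 ± 0.057 (limma adjusted p = 3.30e-15). Cox7b lay between 13.28 and 13.59 in IP and between 11.31 and 11.61 in total testis, a difference of 2.02 ± 0.065, and its second probe set gave 2.74. Cox8a was higher by 1.91 ± 0.060 and Cox6a1 by 1.79 ± 0.073. None of these 4 genes had an IP array below a total array. Cox4i1, the regulatory subunit that binds ATP, was higher by 0.64 ± 0.078 and Cox5b by 0.37 ± 0.072. After median centring Cox5b was at -0.070 and not called (limma adjusted p = 0.155), and its second probe set gave 0.20. Cox5a, which sits beside Cox4 in the complex, was lower by contrast, at 11.18 to 11.70 in IP and 11.71 to 12.01 in total testis, a difference of -0.41 ± 0.075 (limma adjusted p = 9.25e-05). Cox7a2, called the liver form, was also lower, at -0.58 ± 0.063 (limma adjusted p = 2.15e-07).

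The 3 testis forms were the lowest of all 86 members. Cox7b2 lay between 8.92 and 9.95 on the IP arrays (median 9.17) and between 10.94 and 11.52 on the total arrays (median 11.35). Cox8c lay between 10.50 and 11.31 in IP (median 10.97) and between 12.01 and 12.44 in total testis (median 12.27). Cox6b2 lay between 11.31 and 12.72 in IP (median 11.80) and between 12.96 and 13.31 in total testis (median 13.14). For each of the 3, every IP array was below every total array. The differences were -2.09 ± 0.087, -1.36 ± 0.087 and -1.20 ± 0.066 (limma adjusted p = 8.95e-13, 2.41e-10 and 3.16e-11). The spermatid and spermatocyte markers, at 0 higher in IP, moved the same way, and their part in these differences was not tested.

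The muscle forms did not share a direction. Cox7a1 was the second most enriched member, at 11.18 to 11.97 in IP (median 11.44) and 8.65 to 9.23 in total testis (median 8.89), a difference of 2.55 ± 0.089 (limma adjusted p = 9.15e-14). Cox6a2 was higher by 0.26 ± 0.084 (limma adjusted p = 0.00999), with overlapping arrays. This call was lost with the random set block (limma adjusted p = 0.112), and the difference became -0.18 after median centring and -0.11 after quantile normalization. Cox8b (8.04 to 8.61 in IP, 8.13 to 8.43 in total testis) and Cox4i2, a form known from lung and low oxygen (8.41 to 8.92 and 8.44 to 8.64), were not called. Both lay near the low-value limit of 8.20.

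Pairs of forms of one subunit were then compared within each array, as the log2 ratio of one form to the other. Such a ratio is free of any constant factor per array, though quantile normalization can move it. Its absolute value has no meaning, since 2 probe sets differ in brightness for reasons of their own, and only its change from total testis to IP of the same testis is given (mean ± SD, n = 10 testes). The 5 testes of a replicate number appear to share their normalization sets. The test of these changes treats the 10 testes as independent, so its p-values may be too small. In all 3 pairs of a testis form and its widely expressed counterpart the ratio fell in 10 of 10 testes. The ratio of Cox7b2 to Cox7b was -0.37 to 0.14 in total testis (median -0.12) and -4.67 to -3.50 in IP (median -4.21), a change of -4.11 ± 0.37, or 17.3-fold. With the second probe set of Cox7b the change was -4.83 ± 0.36. The ratio of Cox6b2 to Cox6b1 was 2.14 to 2.40 in total testis and -1.77 to -0.42 in IP, a change of -3.39 ± 0.50, or 10.5-fold. The ratio of Cox8c to Cox8a was 0.82 to 1.45 in total testis and -2.37 to -1.78 in IP, a change of -3.27 ± 0.23, or 9.65-fold. In none of the 3 pairs did the ratios of the fractions overlap.

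**Figure D2:**
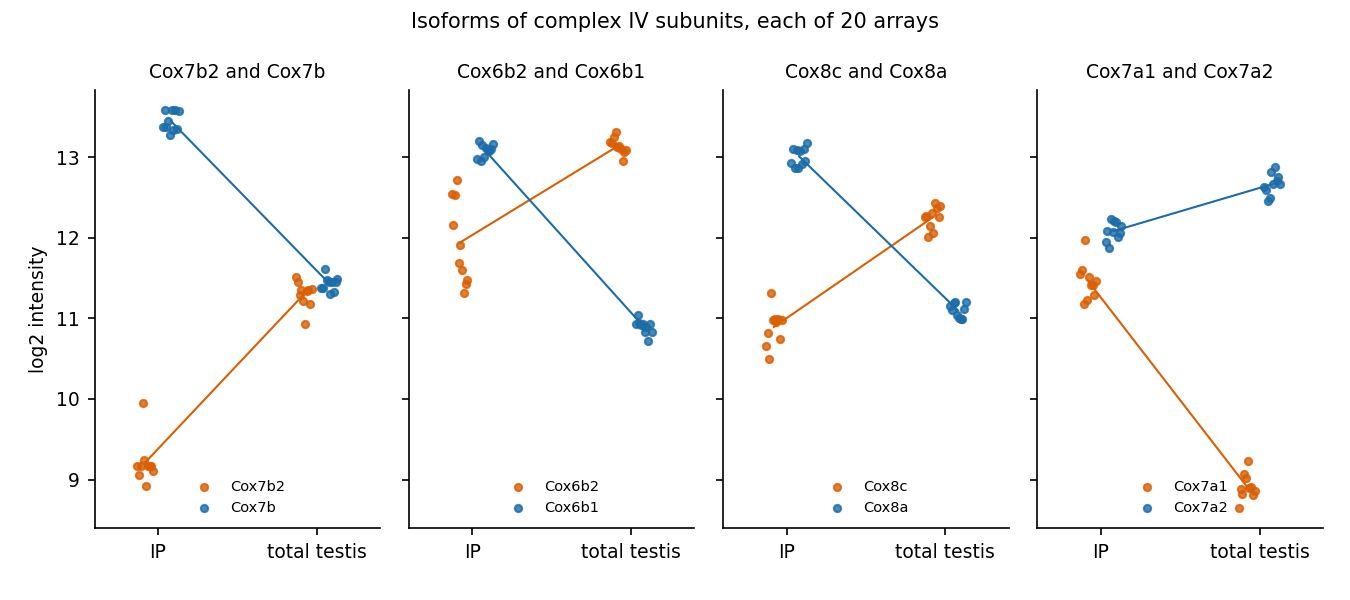
Log2 intensity of both forms in 4 pairs of complex IV subunits on each of the 10 IP and 10 total testis arrays (points), with lines joining the means of the fractions. In the 3 pairs of a testis form with its counterpart the lines run in opposite directions, and in the pair Cox7a1 and Cox7a2 the muscle form is the one that is higher in IP. The slopes can be compared between genes, the heights cannot.

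The pair of the muscle and liver forms ran the other way. The ratio of Cox7a1 to Cox7a2 rose by 3.13 ± 0.23, or 8.78-fold, in 10 of 10 testes, with both a higher Cox7a1 and a lower Cox7a2. The ratio of Cox6a2 to Cox6a1 fell by 1.53 ± 0.19, where Cox6a2 differed by 0.26 and Cox6a1 was higher in IP. The changes were -1.77 ± 0.17 for Cox8b to Cox8a and -0.58 ± 0.25 for Cox4i2 to Cox4i1. Since Cox8b and Cox4i2 lay near the low-value limit, these 2 values say no more than that Cox8a and Cox4i1 were higher in IP. Outside the complexes, 3 pairs with a germ cell form gave the same direction: testis cytochrome c to the somatic one (Cyct to Cycs, -1.35 ± 0.19), the adenine nucleotide carriers Slc25a31 to Slc25a4 (-3.65 ± 0.49) and the pyruvate dehydrogenase subunits Pdha2 to Pdha1 (-3.68 ± 0.28). Of the 10 pairs compared, each passed a two-sided exact permutation test by sign flips over the 10 testes (p = 0.00195, the smallest this design can give, Benjamini-Hochberg adjusted p = 0.00195). The test therefore does not rank the pairs. How many other pairs of genes change in 10 of 10 testes was not counted. Among single genes 32.8% had all IP arrays above all total arrays and 10.1% all below.

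In 80 of the 86 members the difference had the same sign in both replicates, and in 84 it was higher in replicate 2. The members' median difference was 0.50 in the replicate 1 arrays and 0.71 in the replicate 2 arrays. The median of all genes rose as well, from 0.03 to 0.38, so the rise was not particular to the members. The shares of all genes with the same sign or a rise were not counted. Ndufa4 stood at 2.60 and 2.66, Cox7a1 at 2.50 and 2.61, Cox6b1 at 2.10 and 2.28, Cox7b2 at -2.12 and -2.05, Cox8c at -1.49 and -1.23 and Cox6b2 at -1.19 and -1.22. The 6 members of opposite sign were Ndufs4 (-0.14 and 0.13), Cox8b (-0.10 and 0.38), Cox4i2 (-0.18 and 0.31), Ndufa7, Ndufv2 and Sdhaf4, none of them called.

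**Figure D3:**
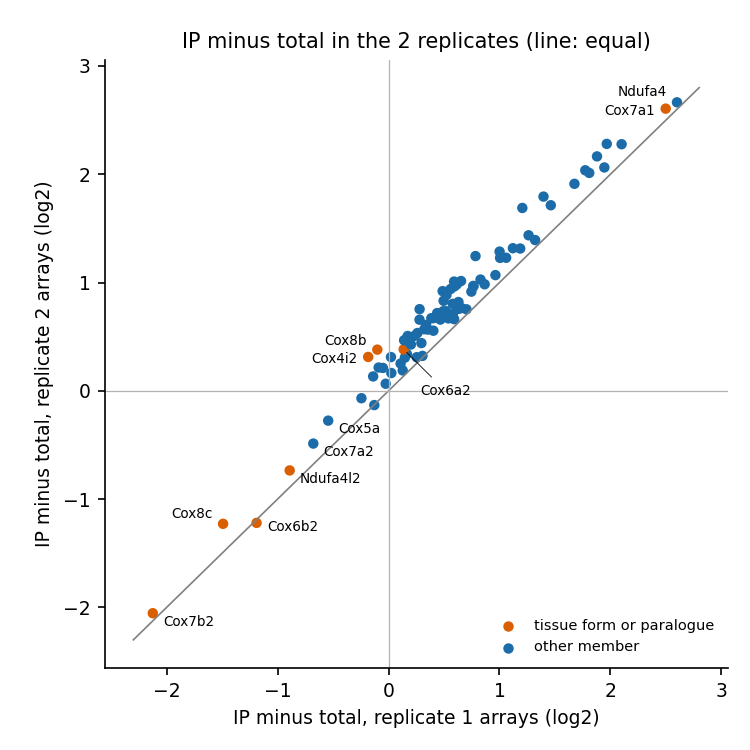
IP minus total testis (log2) of each member in the replicate 1 arrays (horizontal axis) and the replicate 2 arrays (vertical axis), each the mean over 5 windows, with a line of equal values. Of the points 84 lie above the line, with medians of 0.50 and 0.71, and the testis forms lie at the lower left in both.

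Several probe sets were available for 18 members, and the highest was used. The differences given by the probe sets of one gene were 0.16 apart in the median and at most 0.72 (Cox7b), and in 3 genes they had opposite signs. These were Cox7a2l (0.61 and -0.09), Ndufc1 (0.09 and -0.07) and Sdhaf4. Many respiratory genes have processed copies in the genome, and a probe set may also read such a copy.

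The genes that build and feed the complexes were counted from lists of their own. Of 15 complex I assembly factors 12 were higher in IP and 2 lower (median 0.54), with Tmem126b (1.84 ± 0.073) and Ndufaf6 (1.43 ± 0.055) as the most enriched and Ndufaf2 lower (-0.58 ± 0.087). Of 10 assembly factors of complexes II and III, the 4 Sdhaf members included, 6 were higher and 2 lower (median 0.54), among them Bcs1l (1.02 ± 0.083), which inserts the Rieske protein, and Lyrm7 (-0.83 ± 0.071), which carries that protein before its insertion. Of 17 complex IV assembly factors 12 were higher and 2 lower (median 0.67), led by the heme A synthase Cox15 (1.54 ± 0.084), Surf1 (1.49 ± 0.063) and the copper chaperone Sco1 (1.47 ± 0.075). Of 5 genes of complex V assembly and inhibition 4 were higher and 0 lower (median 0.47), with Fmc1 at 1.31 ± 0.077.

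The tricarboxylic acid cycle, which supplies NADH and succinate, had 11 of 12 genes higher and 0 lower (median 1.10), led by the succinyl-CoA ligase subunit Suclg2 (2.75 ± 0.084) and the isocitrate dehydrogenase subunit Idh3g (2.35 ± 0.068). Of 16 genes of electron carriers and electron entry 12 were higher and 3 lower (median 0.61). Coq8a, a kinase-like protein of ubiquinone synthesis, was higher by 3.22 ± 0.087, and the electron transfer flavoprotein genes Etfdh, Etfa and Etfb, which bring in electrons from fatty acid oxidation, by 2.78 ± 0.067, 2.61 ± 0.077 and 2.58 ± 0.068. Of 5 inner membrane carriers and uncouplers 3 were higher and 1, the germ cell carrier Slc25a31 (-1.44 ± 0.12), was lower. Regulators of mitochondrial biogenesis lay close to the median of all genes, at a median of 0.24, with 7 of 12 higher and 2 lower. Pprc1 (0.85 ± 0.070) and Gabpa (0.77 ± 0.064) were higher, and Nrf1 (-0.01 ± 0.072), Tfam (-0.13 ± 0.16) and Ppargc1a (-0.12 ± 0.077) were not called. Tfb1m (-0.52 ± 0.075) and Gabpb1 (-0.22 ± 0.079) were the 2 lower. Tfam was not flat over the windows of the cycle. It ranged over 2.72 in total testis (limma F test over the windows, adjusted p = 4.01e-05) and also had a window effect in IP (adjusted p = 0.0144). These counts can be read against the 50.1% higher and 26.6% lower among all genes, and they too depended on the scaling. After median centring the regulators were at 4 higher and 8 lower, the assembly factors of complex I at 8 and 4, of complexes II and III at 5 and 4, of complex IV at 9 and 7 and of complex V at 2 and 2. The tricarboxylic acid cycle was then at 9 and 2 and the electron carriers at 9 and 4. After quantile normalization the regulators were at 4 and 6, and with the random set block at 4 and 1.

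The second comparison asked whether the members differed between the 5 windows of the cycle. Few did. In IP 1 of 86 members was called by limma's F test over the windows (adjusted p under 0.05; also 1 at an unadjusted p under 0.05), while 8.87% of all genes were called. In total testis 3 were called (6 unadjusted), against 18.4% of all genes. The difference between highest and lowest window had a median of 0.17 over the members in IP and 0.21 in total testis, against 0.24 and 0.28 over all genes. By limma 0 members were called for a window pattern that differed between the fractions (2 at an unadjusted p under 0.05, 0.0511% of all genes called). The number of arrays, 2 per window and fraction, limits the precision of these tests.

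The member called in IP was the testis form Cox6b2. Its log2 intensity in IP was 11.43 and 11.48 in XII-II/III, 12.55 and 12.17 in II/III-VI, 12.54 and 12.72 in VI-VIII, 11.69 and 11.92 in VIII-X and 11.60 and 11.31 in X-XII. The arrays of II/III-VI and VI-VIII lay above those of the other 3 windows without overlap. VI-VIII exceeded the mean of the other windows by 0.86 ± 0.12 (SE), a contrast not tested by itself, and the range over windows was 1.17. The F test over the windows in IP gave limma adjusted p = 6.97e-05. In total testis Cox6b2 ranged over only 0.25 and was not called, at 12.96 to 13.31. The difference between the fractions in this pattern was not called (limma adjusted p = 0.123), but with the replicate block it was (limma adjusted p = 0.0425). Its counterpart Cox6b1 stayed within 12.96 to 13.21 in IP. Of the 10 spermatid markers 4 peaked in VI-VIII in IP and 6 in VIII-X. Of the 10 spermatocyte markers 6 peaked in VI-VIII in IP and 2 in II/III-VI. The mean log2 intensity of the spermatid markers in IP was 12.21 and 11.88 in II/III-VI, 11.73 and 12.56 in VI-VIII and 11.99 and 12.31 in VIII-X, with 11.66 and 11.71 in XII-II/III and 11.69 and 11.61 in X-XII. Their summed intensity ran in another order, from 47696 and 77374 in VI-VIII and 61994 and 56683 in II/III-VI to 66058 and 70573 in XII-II/III, 70990 and 68864 in X-XII and 76034 and 81836 in VIII-X. The mean of the spermatocyte markers was 10.83 and 10.67 in II/III-VI and 10.61 and 11.17 in VI-VIII, with 10.48 and 10.59 in XII-II/III, 10.66 and 10.73 in VIII-X and 10.46 and 10.97 in X-XII. The part of these germ cell transcripts in the Cox6b2 pattern was not tested.

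**Figure D4:**
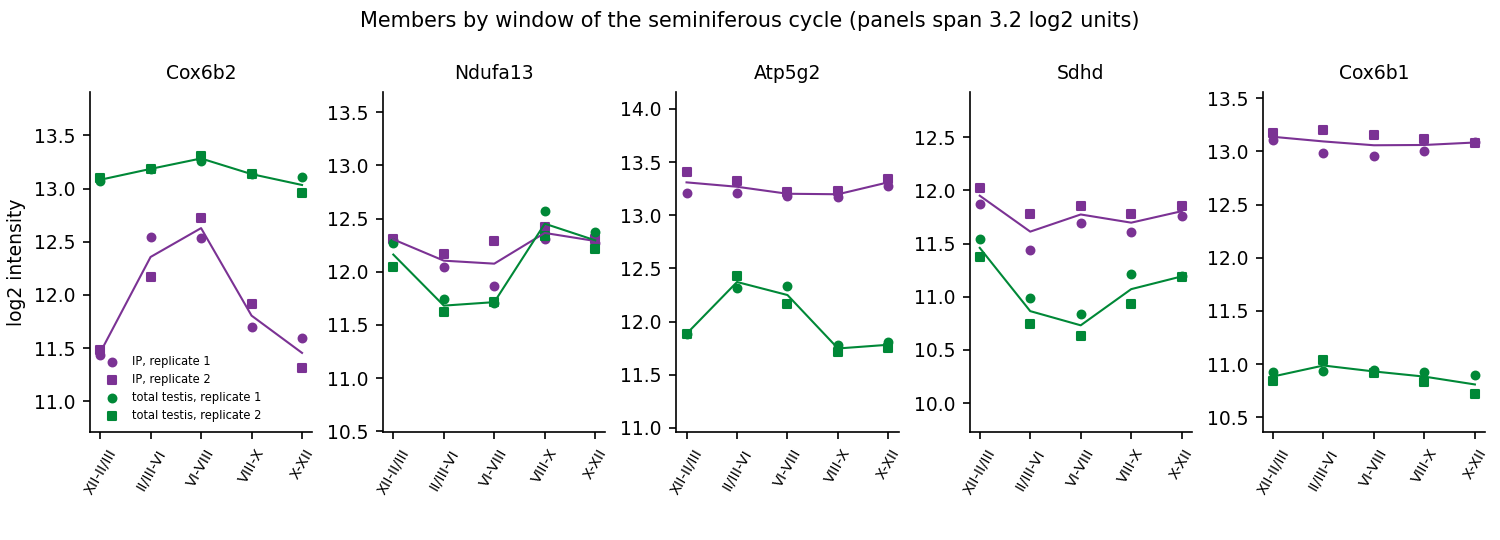
Log2 intensity of Cox6b2, Ndufa13, Atp5g2, Sdhd and Cox6b1 by window in IP and total testis, with replicate 1 as circles, replicate 2 as squares and lines through the window means. Cox6b2 varies with the window in IP, Ndufa13, Atp5g2 and Sdhd in total testis, and Cox6b1 in neither.

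In total testis the called members peaked in different windows. Atp5g2, a gene for the c subunit, was at 12.32 and 12.43 in II/III-VI and 12.33 and 12.17 in VI-VIII, and between 11.72 and 11.88 in the other windows. It was 0.46 ± 0.095 higher in II/III-VI than in the mean of the others, and in IP it ranged over only 0.11. The F test over the windows in total testis gave limma adjusted p = 0.00207. For this gene and the next 2 the contrast of the highest window was not tested by itself. Ndufa13, a complex I subunit also known for a role in cell death, was lowest in II/III-VI (11.74 and 11.62) and VI-VIII (11.71 and 11.72). It was highest in VIII-X (12.57 and 12.34), which stood 0.49 ± 0.12 above the others (F test over the windows, limma adjusted p = 0.00248). Sdhd, a membrane anchor of complex II, was highest in XII-II/III (11.54 and 11.38) and lowest in VI-VIII (10.83 and 10.63). XII-II/III stood 0.50 ± 0.12 above the others (F test over the windows, limma adjusted p = 0.0162). The Sdhd call was lost without total testis XII-II/III replicate 1 (limma adjusted p = 0.107) or VI-VIII replicate 2 (limma adjusted p = 0.0805). With the replicate number within each fraction as a block, 15 of the 86 members were called in total testis, against 36.7% of all genes.

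Over all windows the IP minus total difference of Ndufa13 was 0.17 ± 0.067 (limma adjusted p = 0.0320). This call was lost with the testis as a block (limma adjusted p = 0.0610), with the random set block (limma adjusted p = 0.295) and in 9 of the 20 fits that left out an array.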

How the data were processed

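The deposited values are intensities of summarized probe sets on a linear scale, made by the authors with RMA per the submitters' processing notes. The software and version are not given in the sources used here. Within a fraction and replicate number, 4.68% to 15.6% of the value pairs of 2 arrays were exactly equal, against 6 of 3708775 pairs across, so the arrays appear to have been normalized in 4 sets of 5. One label field of a total testis array (XII-II/III, replicate 1) reads X-II/III instead, and its title was followed. Array precision is limited by the number of arrays, and nothing in the labels names separate animals for the replicates beyond 1 testis per time point, so p-values measure the spread between these samples.

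Symbols came from the platform annotation (21789 of 28856 probe sets with 1 symbol). The probe set with the highest mean was kept per gene, values were taken as log2, and 15651 genes were tested that were listed on all arrays and passed the 25th percentile (8.20) in at least 1 group mean. Tests used limma 3.58.1 in R 4.3.3, with a mean per group, eBayes and two-sided Benjamini-Hochberg adjusted p-values over all genes tested. The isoform test enumerated the sign flips with numpy 2.4.6. The fit was tested on simulated data with independent noise on each array. These held no effect of set or testis and so do not show how often the calls made here are false. An IP and a total array of one window and replicate number come from the same testis per the labels' protocols, and their deviations correlated at 0.16 to 0.36 in every window. Between different windows of one fraction the deviations correlated at -0.006 to 0.55 in IP and -0.06 to 0.67 in total testis. After each fraction's mean deviation over the windows was removed, the same-testis correlations were 0.30 to 0.52. Values for different testes were not computed in that way. The pairing therefore rests on the protocols and not on these correlations. Named were the members of isoform pairs, the extremes of each complex, the 5 largest and smallest differences, members with a window call, and up to 4 examples per list. Others were named for their role, after their values were seen. Members and lists were chosen with earlier results of these data known. Alternatives covered scaling, filter, probe sets, array weights, blocks and left-out arrays.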

Additional observations from a re-analysis of the deposited data

How the results depend on the processing

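The count of members higher in IP (71) stayed between 62 and 71 under all alternatives other than median centring, which gave 49. The count lower in IP (7) became 24 after median centring and 12 after quantile normalization. Leaving out each array in turn gave 69 to 71 higher and 7 lower. Median centring lowers every gene's difference by the same amount and turned 21 members to a negative sign: Atp5b (-0.13), Atp5d (-0.19), Atp5j (-0.21), Atp5md (-0.26), Atp5mpl (-0.16), Cox4i2 (-0.37), Cox5b (-0.070), Cox6a2 (-0.18), Cox6c (-0.19), Cox8b (-0.30), Ndufa12 (-0.28), Ndufa13 (-0.27), Ndufa7 (-0.38), Ndufa9 (-0.10), Ndufc1 (-0.34), Ndufs6 (-0.12), Ndufs7 (-0.041), Ndufv2 (-0.36), Sdhaf4 (-0.42), Uqcrc1 (-0.12) and Uqcrq (-0.066). Quantile normalization turned Cox4i2 (-0.19), Cox6a2 (-0.11), Ndufa7 (-0.14), Sdhaf4 (-0.40) and Cox8b (-0.061) to a negative sign and Ndufs4 (0.032) to a positive one, and the mean of a gene's probe sets turned Sdhaf4 (-0.23). With the testis as replicate block 70 members were higher and 7 lower, Ndufa13 being the 1 lost, and no other call of IP against total changed. With the set as a random block 10 members lost their call. Members with a window effect in IP stayed at 1 under every alternative and at 1 to 2 in the fits without 1 array (2 without IP VI-VIII replicate 1, where Cox7b2 was added). In total testis the count of 3 became 6 after median centring, 6 after quantile normalization, 14 with array weights, 5 with the total arrays alone and 15 with the replicate number as a replicate block, and it lay between 2 and 4 without 1 array. Over all 15651 genes tested these 5 settings gave 4616, 4468, 5936, 4790 and 5747 calls, against 2885 as reported. The rise was thus not particular to the members. The count of 0 for a pattern that differs between fractions became 1 after quantile normalization (Atp5g2) and 2 with the replicate block (Atp5g2 and Cox6b2), and stayed 0 without any 1 array. Over all genes tested the first 2 of these settings gave 142 and 361. The 10 isoform changes, of which those with Cox8b and Cox4i2 rest on a probe set near the low-value limit, kept their direction and call when unpaired, after quantile normalization and without any 1 testis. Over all genes, 4798 were higher and 8982 lower after median centring and 7182 lower after quantile normalization. Counts of window calls over all genes ranged from 407 to 3004 in IP (1388 as reported), from 2187 to 5936 in total testis (2885) and from 1 to 361 for a pattern that differs between fractions (8).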

Other observations

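By the chromosome in the promoter table, 3 members lie on the X chromosome, Cox7b, Ndufa1 and Ndufb11, and all 3 were among the 6 members with the largest IP minus total difference (median 2.02 on the log2 scale). This was noticed after the values were seen. Of the 440 tested genes on the X chromosome in that table, 68.0% were called higher in IP, with a median difference of 0.80, against 49.7% and a median of 0.19 for the 11969 on other chromosomes.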
